A study of Mus musculus with 22 samples.

Results

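Methionine, folate and one-carbon metabolism was described here through 34 genes, chosen by symbol from the enzymes of the methionine cycle, homocysteine remethylation, transsulfuration, choline oxidation, serine synthesis, folate interconversion, glycine cleavage and creatine synthesis. All 34 were found among the 45777 genes of the deposited liver count tables, and all 34 had enough counts to be tested in each cohort. The livers came from wild-type male C57BL/6J mice in 2 cohorts, each labelled as its own batch. The HFD cohort held 3 normal-diet (ND) libraries, 4 from high-fat diet (HFD) with vehicle and 4 from HFD with DTMB, and its disease groups were labelled MASLD, the fatty liver disease that accompanies metabolic dysfunction. The MCD cohort held 4 ND libraries, 4 from methionine-choline-deficient (MCD) diet with vehicle and 3 from MCD with DTMB, labelled MASH, the inflamed form of that disease. DTMB, a compound known here by its code name only, was dosed orally (10 mg/kg per day), and both ND groups received vehicle. The sources used here give neither the age of the mice nor the length of feeding. Replicates are called biological in the labels without naming animals, so the p-values measure the spread between these libraries.

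In the methionine cycle, methionine adenosyltransferase turns methionine into S-adenosylmethionine, the methyl donor of the cell, and methyl transfer followed by hydrolysis leaves homocysteine. Homocysteine is either remethylated to methionine, with a methyl group from betaine or from methyltetrahydrofolate, or drained through transsulfuration to cysteine and taurine. Folate enzymes carry one-carbon units between serine, glycine, formate and the cycle. The liver is the main site of methionine and choline breakdown. The MCD diet withholds both nutrients.

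The libraries held 50.1 to 66.7 M counts each. Albumin and the other hepatocyte markers were high in every library, with 8 of 9 listed genes tested and a summed level of 75303 to 120821 CPM (gene counts scaled to a common library total, in counts per 1000000). Pancreatic acinar transcripts were above 100 CPM in 6 of 22 libraries, at 402 to 3411 CPM of the unscaled library total against at most 21.4 CPM in the others. These were ND replicates 1 and 3, HFD vehicle replicates 1 and 4 and HFD DTMB replicate 3 of the HFD cohort, and ND replicate 4 of the MCD cohort. ND replicate 1 of the HFD cohort also carried muscle transcripts, at 161 CPM against at most 4.89 CPM elsewhere. Results for the HFD cohort are given with the acinar libraries and, for some members and counts, also without them. Leaving them out leaves 1 ND, 2 HFD vehicle and 3 HFD DTMB libraries.

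The start regions of 5 members are printed because the results turn on them. Psat1, Mthfd1l, Phgdh and Mat2a are 4 of the genes that rose on MCD, and Gamt moved in opposite directions on the 2 diets. Each sequence runs 5′ to 3′ on the gene's strand, from 250 bases before to 50 bases after the start used by the promoter table, from RefSeq's GRCm38.p6 annotation. For Mthfd1l and Gamt that start lies inside the outermost end of the annotated gene. Capitals mark a match to one of 3 searched motifs.
Psat1, chr19:15925010-15925309, minus strand: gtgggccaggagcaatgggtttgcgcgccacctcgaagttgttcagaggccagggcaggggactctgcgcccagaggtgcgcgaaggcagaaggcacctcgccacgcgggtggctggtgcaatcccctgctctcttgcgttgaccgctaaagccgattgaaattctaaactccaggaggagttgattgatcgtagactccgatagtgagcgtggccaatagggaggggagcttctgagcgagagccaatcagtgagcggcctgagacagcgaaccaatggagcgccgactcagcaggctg
Mthfd1l, chr10:3972825-3973124, plus strand: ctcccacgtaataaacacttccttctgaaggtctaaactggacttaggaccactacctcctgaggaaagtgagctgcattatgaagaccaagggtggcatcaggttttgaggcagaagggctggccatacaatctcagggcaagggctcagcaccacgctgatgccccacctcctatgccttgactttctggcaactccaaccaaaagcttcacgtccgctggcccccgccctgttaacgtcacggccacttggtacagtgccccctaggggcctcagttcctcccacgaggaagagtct
Phgdh, chr3:98339920-98340219, minus strand: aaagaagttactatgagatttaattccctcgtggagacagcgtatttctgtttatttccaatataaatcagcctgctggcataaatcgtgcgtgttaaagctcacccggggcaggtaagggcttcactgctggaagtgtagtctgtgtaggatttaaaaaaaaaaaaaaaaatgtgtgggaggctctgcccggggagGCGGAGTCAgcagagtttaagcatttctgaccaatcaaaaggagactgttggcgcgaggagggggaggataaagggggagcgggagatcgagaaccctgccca
Mat2a, chr6:72439507-72439806, minus strand: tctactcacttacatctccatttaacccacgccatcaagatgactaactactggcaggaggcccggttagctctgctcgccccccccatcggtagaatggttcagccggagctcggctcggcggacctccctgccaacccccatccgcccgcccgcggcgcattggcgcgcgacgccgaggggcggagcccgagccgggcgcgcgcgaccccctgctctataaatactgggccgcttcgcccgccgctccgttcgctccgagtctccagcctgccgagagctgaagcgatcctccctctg
Gamt, chr10:80260963-80261262, minus strand: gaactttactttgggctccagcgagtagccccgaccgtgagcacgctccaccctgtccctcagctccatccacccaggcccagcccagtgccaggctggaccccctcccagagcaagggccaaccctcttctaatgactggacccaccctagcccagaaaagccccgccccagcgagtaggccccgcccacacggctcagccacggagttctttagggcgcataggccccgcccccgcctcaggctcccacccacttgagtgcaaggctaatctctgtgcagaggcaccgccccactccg
The composite element bound by C/EBP and ATF proteins (TGATGNAA), searched on both strands, was in none of the 28 members with an entry in the promoter table, and 4.51% of all 27025 genes in that table held it. The core of the antioxidant element (TGACNNNGC) was in 4 of 28 members, Ahcyl1, Phgdh, Psph and Amt, beside 14% of genes. In Phgdh, where it reads GCGGAGTCA on the printed strand, it begins 53 bases before the start. The E box (CACGTG) was in 2 of 28, Cbs and Tyms, beside 8.09% of genes. The Mat2a region was rich in CpG, with 34 CpG pairs and 67% G and C, against a median of 7 pairs and 52.7% over 32851 promoters. Psat1 held 20 pairs in the printed region and 30 in the region of another listed start, which is not printed. Gamt held 14, Phgdh 11 and Mthfd1l 8. Bhmt2 and Dmgdh start 134 bases apart on opposite strands of chromosome 13 and so share their upstream sequence.

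On normal diet the members spanned more than 4 orders of magnitude in CPM per kilobase of their longest coding transcript, the scale used here to set genes side by side. Bhmt, which remethylates homocysteine with betaine, stood first in both cohorts, at 3400.0 ± 821 in the HFD cohort (SD, n = 3) and 2249 ± 971 in the MCD cohort (SD, n = 4). Mat1a, the adenosyltransferase of adult liver, was next in the HFD cohort at 2734 ± 382 and overlapped Bhmt within the spread. In the MCD cohort Gnmt, which methylates glycine, held that place at 1843 ± 217, and Mat1a stood at 919 ± 184. Ahcy, which hydrolyses S-adenosylhomocysteine, and Cdo1, which oxidises cysteine, completed the leading 5 genes in both cohorts. The lowest 4 were Mthfd1l, Psat1, Phgdh and Aldh1l2, at 0.244 or less in the HFD cohort and 0.249 or less in the MCD cohort. All 4 of these rose on MCD. Genes this low on ND have little room to be called lower, so the grouping by level is a description only. The tables also list Bhmt-ps1 and Tyms-ps, pseudogenes of 2 members, and how counting treated shared reads is not given in the sources used here.

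On HFD, Mat1a, Gnmt, Nnmt, Ahcy and Ahcyl1 of the methionine cycle and Cbs, Cth and Csad of transsulfuration were lower than on normal diet, while Mat2a, Shmt1, Shmt2, Sardh and Gamt were higher. Of 34 members 5 rose, against 15.2% of all genes tested, and 8 fell, against 12.6%. Each call was made at an adjusted p under 0.05 in edgeR's quasi-likelihood test with Benjamini-Hochberg adjustment over 15597 genes. The median log2 fold change was 0.08 over the members and 0.02 over all genes. Scaled by library size alone, a setting that lifts the median of all genes to 0.14, 9 members rose and 6 fell. The 4 rises gained were of Aldh7a1, Amt, Cdo1 and Mthfd1. The shares of all genes called under that scaling and without the acinar libraries are not given here. The member counts of these settings are therefore a description only. Without the acinar libraries 6 members kept a call, namely Mat1a, Nnmt, Ahcy, Cbs, Cth and Gamt.

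Among methionine cycle genes, 5 of 7 fell and 1 rose on HFD. Mat1a read 9742, 10659 and 8047 CPM on ND and 4499.8, 4450.3, 4372 and 4225 CPM on HFD. The groups were far apart, and the HFD libraries lay within a narrow band. Mat1a was lower by a log2 fold change of -1.11 ± 0.11 (SE, adjusted p = 4.9e-05), a 2.16-fold difference. Mat2a, the adenosyltransferase of other tissues and growing liver, moved the other way, from 74.8, 58.5 and 73.2 CPM to 87.1, 82.5, 107 and 97.0 CPM. Its libraries did not overlap either, at a log2 fold change of 0.44 ± 0.11 (adjusted p = 0.00908). Without the acinar libraries the Mat2a value was 0.68 ± 0.16, with adjusted p = 0.0684.

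Nnmt, which spends methyl groups on nicotinamide, stood at 178, 185 and 149 CPM on ND and at 89.0, 93.8, 93.5 and 87.6 CPM on HFD. Every HFD library held less than any ND library, at -0.91 ± 0.09 (adjusted p = 4.9e-05). Ahcy fell from 3156, 3336 and 2495 CPM to 1829.8, 2050.1, 2124 and 1704 CPM. The 2 groups were again separate, at -0.64 ± 0.11 (adjusted p = 0.00125). Ahcyl1, an Ahcy-like protein without its hydrolase role, fell by 0.30 on the log2 scale (SE 0.08, adjusted p = 0.012), a call lost under library-size scaling. Gnmt was at -0.26 ± 0.09 (adjusted p = 0.0489) with overlapping libraries, and lost its call in 13 of 19 other settings. Mat2b, the regulatory subunit of the Mat2a enzyme, was at -0.21 ± 0.11 (adjusted p = 0.163).

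Homocysteine remethylation genes showed no call on HFD, with Bhmt, Bhmt2, Mtr and Mtrr between -0.16 and 0.10. Of the 4 transsulfuration and taurine genes, 3 fell. Cbs, which joins homocysteine to serine, went from 458, 514 and 424 CPM to 294, 283, 307 and 261 CPM. Cth, which releases cysteine, went from 562, 847 and 599 CPM to 360.2, 342, 339 and 331 CPM. In both genes every HFD library lay under every ND library, at -0.70 ± 0.13 for Cbs (adjusted p = 0.00168) and -0.96 ± 0.13 for Cth (adjusted p = 0.000326). Csad, the decarboxylase on the way to taurine, fell from 331, 352 and 419.6 CPM to 145, 163, 231 and 176 CPM. Its log2 fold change was -1.04 ± 0.26 (adjusted p = 0.0104), and -0.85 ± 0.19 with adjusted p = 0.0569 without the acinar libraries. Cdo1 was at 0.09 ± 0.09 and was not called.

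Gamt, which makes creatine with a methyl group of S-adenosylmethionine, was the strongest rise on HFD. It read 30.6, 47.4 and 41.1 CPM on ND and 93.9, 116, 116 and 102 CPM on HFD. The lowest HFD library held more than the highest ND library, at 1.43 ± 0.14 (adjusted p = 3.86e-05). Gatm, which makes the guanidinoacetate that Gamt methylates, was at 0.03 ± 0.22. It is known for high expression in pancreas as well. Its levels ran from 3.47 to 6.60 CPM over the ND and HFD vehicle libraries. On a scale set over all 22 libraries, the acinar ND libraries held 4.41 and 6.98 CPM and the other 4.46 CPM. The acinar HFD vehicle libraries held 6.71 and 5.81 CPM and the others 5.31 and 3.55 CPM. A link between Gatm and acinar transcripts was not tested.

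Serine hydroxymethyltransferases split serine into glycine and a one-carbon unit, Shmt1 in the cytosol and Shmt2 in mitochondria. Shmt2 went from 131, 146 and 142 CPM to 184, 198, 213 and 180.3 CPM (0.47 ± 0.08, adjusted p = 0.00151). Shmt1 went from 115, 139 and 127 CPM to 155, 152, 163 and 157 CPM (0.31 ± 0.08, adjusted p = 0.0112). Sardh, which recovers the one-carbon unit of sarcosine, went from 641, 752 and 656 CPM to 925, 1039, 905 and 869 CPM (0.45 ± 0.09, adjusted p = 0.0039). In all 3 genes the groups were separate. Without the acinar libraries their values were 0.49 for Shmt2, 0.17 for Shmt1 and 0.36 for Sardh, none of them called. The Shmt1 call was also lost without ND replicate 1 alone (0.23, adjusted p = 0.0578). The other 6 folate enzymes and the 3 serine synthesis genes were not called on HFD, and neither were Gldc and Amt of glycine cleavage.

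Other cell markers moved along with HFD. The macrophage list summed to 164 to 404 CPM on HFD vehicle against 117 to 191 CPM on ND, with 5 of 12 markers higher and none lower. Markers of periportal hepatocytes fell in 6 of 9, and their sum was 5626 to 6572 CPM against 8048 to 11147 CPM. Markers of pericentral hepatocytes rose in 4 of 9 and fell in 1. Their part in the members' differences was not tested. In bulk liver, fewer cells of a type and less RNA per cell cannot be told apart.

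On MCD diet Psat1, Phgdh, Mthfd1l and Aldh1l2, low genes of serine synthesis and mitochondrial folate metabolism, rose steeply, Mat1a and Mat2a both rose, and Aldh1l1, Shmt1, Shmt2, Mthfd1, Amt, Gldc and Sardh fell. Of 34 members 8 rose, against 20.3% of all genes tested, and 13 fell, against 21% (edgeR's quasi-likelihood test over 16037 genes). The median log2 fold change was -0.09 over members and 0.00 over all genes. The balance between rises and falls depended on the scaling. By library size alone, which moves the median of all genes to 0.47, 15 members rose and 8 fell, and over all genes 7683 rose and 1170 fell where TMM scaling gave 3253 and 3373. The 7 rises gained by library size were of Ahcyl1, Mat2b, Bhmt2, Chdh, Dmgdh, Mthfd2 and Tyms. Changes are therefore stated relative to the bulk of genes. Leaving out the 1 acinar library of this cohort gave the same 8 and 13 counts.

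**Figure D1:**
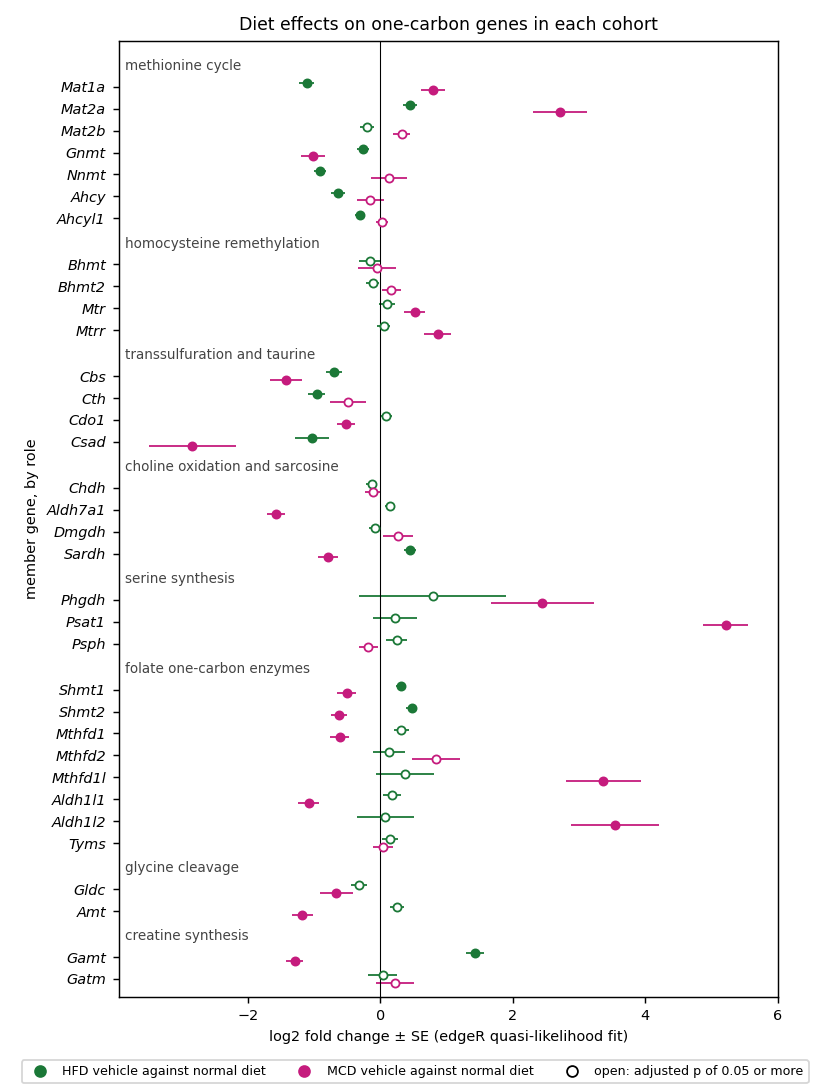
Log2 fold change with its standard error for each of the 34 members, ordered by role, for HFD vehicle against normal diet (green) and MCD vehicle against normal diet (pink); filled points have an adjusted p under 0.05. Mat1a and Gamt lie on opposite sides of 0 on the 2 diets, and Psat1 stands farthest right at 5.21 on MCD.

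Psat1, the transaminase of serine synthesis, changed most. It read 0.814, 0.406, 0.503 and 0.885 CPM on ND and 35.8, 23.0, 23.5 and 14.98 CPM on MCD. Even the lowest MCD library was far above the highest ND library, at 5.21 ± 0.34 (adjusted p = 1.12e-06), a 37.1-fold difference. Phgdh, the first enzyme of the same pathway, stayed near the limit of detection, with 6, 0, 11 and 0 counts on ND and 32, 59, 35 and 13 counts on MCD. Its libraries touched in range, since 1 ND library reached 0.213 CPM and 1 MCD library 0.203 CPM. Its value of 2.45 ± 0.78 (adjusted p = 0.0255) became 3.48 without ND replicate 3, and lost its call without MCD vehicle replicate 2 (2.08, adjusted p = 0.0647). Psph, the last enzyme, was at -0.18 ± 0.14 (adjusted p = 0.339).

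Among mitochondrial folate genes, Mthfd1l and Aldh1l2 were higher on MCD. Mthfd1l, which makes formate in mitochondria, stood at 2.26, 0.180, 0.329 and 0.583 CPM on ND and at 8.0, 9.53, 6.73 and 10.9 CPM on MCD. All MCD libraries were above all ND libraries, at 3.36 ± 0.57 (adjusted p = 0.000703), and the value was 4.58 without the high ND replicate 1. Aldh1l2, the mitochondrial formyltetrahydrofolate dehydrogenase, stood at 0.814, 0.0902, 0.407 and 0.324 CPM on ND and at 5.40, 10.2, 2.44 and 1.496 CPM on MCD. The groups were separate but the MCD libraries spread widely, at 3.55 ± 0.66 (adjusted p = 0.00132) and 2.90 without MCD vehicle replicate 2. Mthfd2, another mitochondrial folate enzyme, had 2.24, 1.65, 1.37 and 1.51 CPM on ND and 1.84, 5.12, 3.30 and 1.84 CPM on MCD. These overlap (0.84 ± 0.36, adjusted p = 0.0807).

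Transcripts of the abundant folate enzymes went down. Aldh1l1, the cytosolic formyltetrahydrofolate dehydrogenase, went from 1601, 1852, 1620.5 and 1278 CPM to 669, 677, 674 and 981 CPM. Every MCD library was below every ND library, at -1.08 ± 0.16 (adjusted p = 0.000297). Shmt2 fell by 0.63 on the log2 scale (SE 0.12, adjusted p = 0.00132), Mthfd1, the cytosolic enzyme with 3 folate activities, by 0.62 (SE 0.14, adjusted p = 0.00471) and Shmt1 by 0.51 (SE 0.14, adjusted p = 0.014). The last 3 calls were lost under library-size scaling, with values of -0.16, -0.16 and -0.05. Tyms, which makes thymidylate for DNA, was at 0.04 ± 0.14 and was not called. Markers of S phase and mitosis rose in 4 of 16 and fell in 1.

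Transcripts of the glycine cleavage members were lower as well. Amt, its aminomethyltransferase, went from 68.5, 71.3, 60.2 and 50.8 CPM to 33.1, 23.3, 28.7 and 25.7 CPM. The groups were separate, at -1.18 ± 0.15 (adjusted p = 0.000117). Gldc, the decarboxylase of the same complex, was at -0.67 ± 0.25 (adjusted p = 0.0484) with overlapping libraries, and lost its call in 13 of 19 other settings. Gamt went from 107, 161, 117 and 122 CPM to 48.2, 48.8, 56.0 and 53.5 CPM. That is -1.29 ± 0.13 (adjusted p = 1.75e-05), with no overlap. Gatm was at 0.22 ± 0.28.

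Both adenosyltransferase genes rose on MCD. Mat2a went from 32.4, 39.3, 33.4 and 46.0 CPM on ND to 201, 276, 440.0 and 75.7 CPM on MCD. All 4 MCD libraries were above ND, yet replicate 4 was well below the others (2.72 ± 0.41, adjusted p = 0.000312). Mat1a went from 4113, 2917, 3052 and 2665 CPM to 5417, 4664, 4735 and 7328 CPM (0.80 ± 0.18, adjusted p = 0.00464). The library lowest in Mat2a, MCD vehicle replicate 4, was the highest of its group in Mat1a. Mat2a overlaps Ggcx and the noncoding Particl on the opposite strand, and whether counting used strand is not given in the sources used here. Mat2b was at 0.32 ± 0.13 (adjusted p = 0.0592).

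In counts, Mat2a per 100 Mat1a was 0.742 ± 0.182 on ND of the HFD cohort (SD, n = 3), 2.13 ± 0.283 on HFD vehicle (n = 4) and 1.99 ± 0.248 on HFD DTMB (n = 4). All 8 HFD libraries, at 1.73 to 2.45, were above the 3 ND libraries, at 0.549 to 0.910. In the MCD cohort it was 1.24 ± 0.398 on ND (n = 4), 4.99 ± 3.5 on MCD vehicle (n = 4) and 7.12 ± 1.08 on MCD DTMB (n = 3). The MCD vehicle libraries ran from 1.03 to 9.29, and replicate 4 lay inside the ND range of 0.787 to 1.73. The ratio was not tested, and it compares counts of transcripts of similar length, 3387 bases for Mat2a and 3468 for Mat1a.

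**Figure D2:**
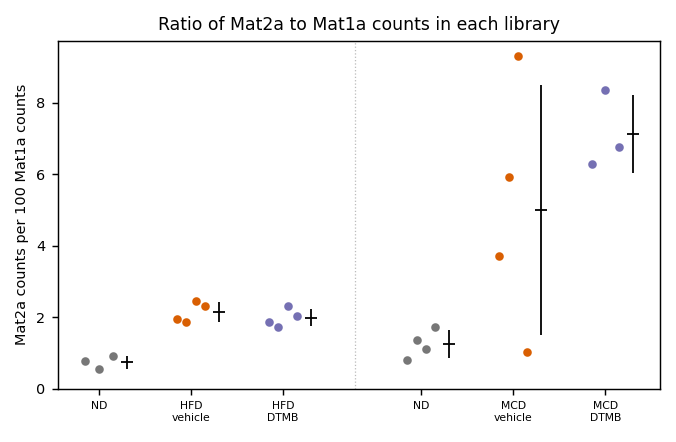
Mat2a counts per 100 Mat1a counts in each library of the 6 groups, with the mean and SD beside the points; the HFD cohort is left of the dotted line and the MCD cohort right of it. Points are tight in the HFD cohort and spread from 1.03 to 9.29 in the MCD vehicle group.

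Some transcripts of enzymes that use S-adenosylmethionine or dispose of homocysteine also differed on MCD. Gnmt went from 2182, 1682, 1994 and 1772 CPM to 917, 705, 798 and 1330.4 CPM, with no overlap (-1.02 ± 0.18, adjusted p = 0.000949). Cbs went from 1058, 625, 708 and 482 CPM to 265, 221, 264 and 318 CPM, again without overlap (-1.43 ± 0.24, adjusted p = 0.000671). Csad went from 323, 75.8, 254 and 261 CPM to 56.5, 35.4, 25.4 and 10.2 CPM. Its ND replicate 2 was low but still above every MCD library (-2.84 ± 0.66, adjusted p = 0.00511). Csad overlaps Zfp740 on the opposite strand. Cdo1 fell by 0.52 on the log2 scale (SE 0.13, adjusted p = 0.00886), a call lost under library-size scaling. Cth, at -0.49 ± 0.27, Ahcy, at -0.15 ± 0.20, Ahcyl1, at 0.03 ± 0.09, and Nnmt, at 0.13 ± 0.27, were not called.

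Of the remethylation genes, Mtr and Mtrr of the vitamin B12-dependent route rose, and Bhmt and Bhmt2 of the betaine route did not pass the test. The difference between the routes was not tested. Mtrr, which reactivates methionine synthase, went from 4.36, 5.71, 5.48 and 8.03 CPM to 8.97, 11.9, 10.7 and 11.4 CPM (0.87 ± 0.20, adjusted p = 0.00529). It overlaps Fastkd3 on the opposite strand. Mtr, methionine synthase itself, went from 7.80, 7.60, 6.76 and 8.76 CPM to 11.01, 11.1, 13.5 and 8.602 CPM. MCD vehicle replicate 4 fell inside the ND range, and the call (0.52 ± 0.16, adjusted p = 0.0203) was lost without ND replicate 3 or MCD vehicle replicate 3. Bhmt, at -0.05 ± 0.28, and Bhmt2, at 0.17 ± 0.14, were not called, though Bhmt2 was at 0.62 (adjusted p = 0.00139) under library-size scaling, and Bhmt ran from 3165 to 8944 CPM within ND alone.

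Of the enzymes that oxidise choline to glycine, Aldh7a1, which can make betaine from betaine aldehyde, went from 628, 689.8, 641 and 587 CPM to 183, 212, 183 and 273 CPM. The highest MCD library was below the lowest ND library by a wide gap (-1.58 ± 0.13, adjusted p = 5.62e-06). Sardh went from 1018, 1219, 1137 and 1003 CPM to 685, 486, 553 and 803 CPM, with no overlap (-0.79 ± 0.15, adjusted p = 0.00166). Chdh, the choline dehydrogenase, was at -0.12 ± 0.11 and Dmgdh, which acts on dimethylglycine, at 0.27 ± 0.23. Neither was called, but both were under library-size scaling, where Chdh turned to 0.35 (adjusted p = 0.0294) and Dmgdh was at 0.73 (adjusted p = 0.00623).

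Hepatocyte markers fell in 5 of 8 tested on MCD and none rose, with Apoa1 at -1.56 and Serpina1c at -2.22. The macrophage list summed to 454 to 1221 CPM on MCD vehicle against 146 to 536 CPM on ND, with 5 of 12 markers higher and none lower. Stellate cell markers rose in 6 of 10 and none fell, summing to 450.1 to 739 CPM against 173 to 381 CPM. Their part in the members' differences was not tested.

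**Figure D3:**
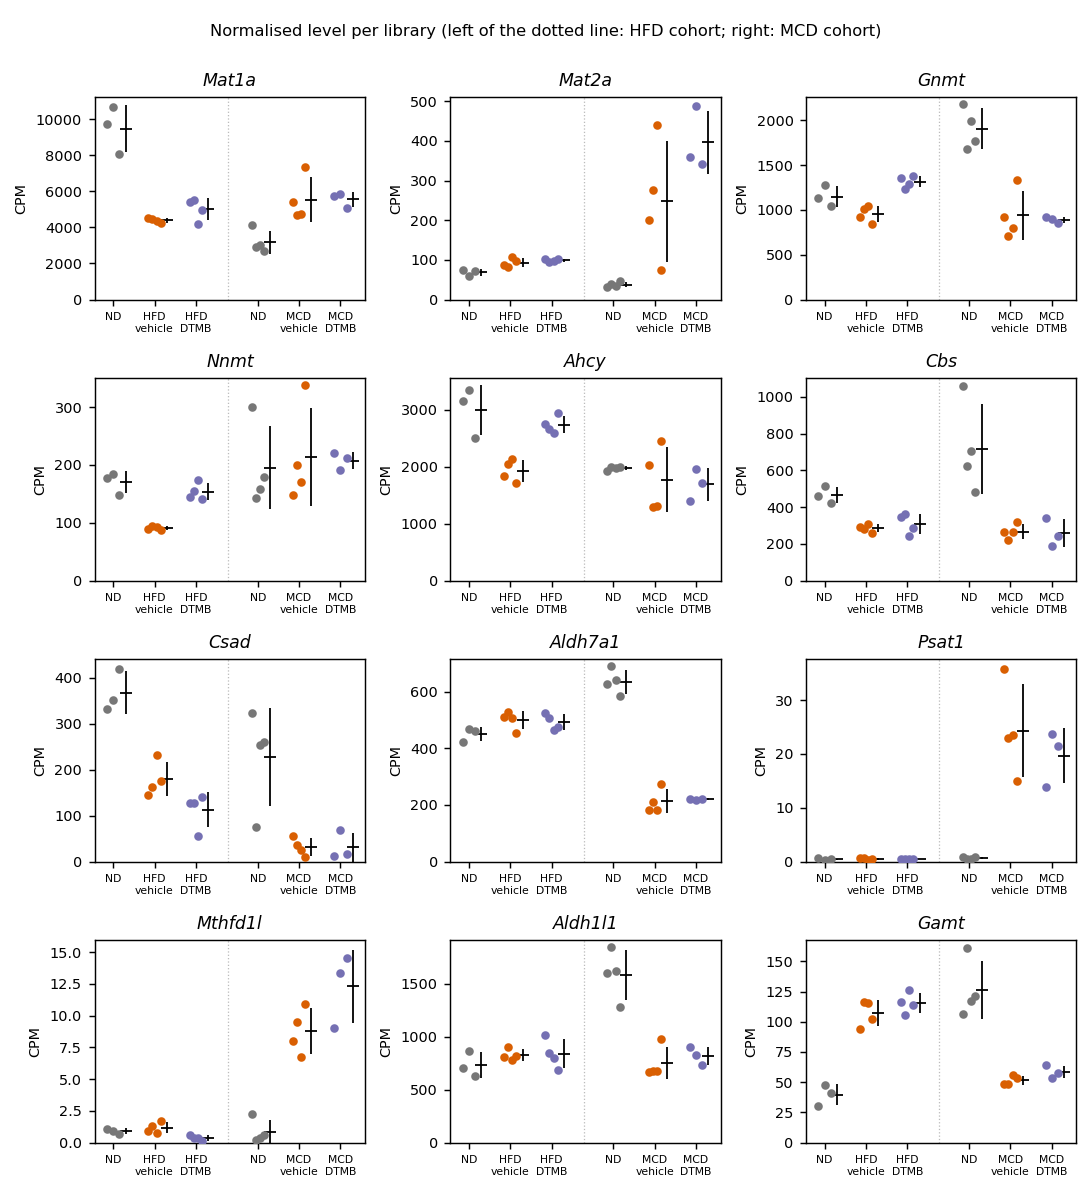
Normalised level in CPM of 12 members in every library, with the mean and SD of each group beside its points (grey ND, orange vehicle on the disease diet, violet DTMB); cohorts are scaled separately, so levels are to be compared within a cohort. Mat1a is lower than ND on HFD and higher than ND on MCD, and Psat1 is above 10 CPM only in the MCD-fed groups.

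The 2 diet effects were tested against each other in a fit of all 22 libraries. The difference, MCD minus HFD, was positive in 9 members, against 16.8% of genes, and negative in 10, against 18.5%. Gamt had the smallest p of the members, with a difference of -2.69 ± 0.19 (adjusted p = 4.57e-09). Aldh7a1 followed at -1.70 ± 0.15 (adjusted p = 6.29e-08) and then Psat1 at 5.02 ± 0.46 (adjusted p = 8.31e-08). Mat1a differed by 1.94 ± 0.22 (adjusted p = 1.41e-06). Without the acinar libraries 8 of the 19 calls were left.

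The normal-diet groups of the cohorts were themselves apart. On a scale set over all 22 libraries, ND libraries of the MCD cohort were all higher than those of the HFD cohort in 11 members, against 17.7% of genes, and all lower in 7, against 16.3%. Mat1a was 9977 ± 1370 CPM on ND of the HFD cohort and 3035 ± 612 CPM on ND of the MCD cohort, while HFD vehicle was at 4567 ± 148 and MCD vehicle at 5318 ± 1202. Gamt was 41.8 ± 9.05 and 120.4 ± 21.5 CPM on the 2 ND groups, and 111 ± 10.8 on HFD vehicle and 49.6 ± 3.28 on MCD vehicle. For Gamt the ND mean of each cohort lay near the disease-diet mean of the other, and for Mat1a the 2 ND means lay on either side of both disease-diet means. Aldh1l1 was 771 ± 127 and 1511 ± 215 CPM on ND, against 862 ± 63.7 on HFD vehicle and 721 ± 149 on MCD vehicle. An ND group enters the diet effect with a negative sign, so an ND difference between cohorts pushes the difference in diet effects the other way by arithmetic. Psat1, Mthfd1l and Aldh1l2 had overlapping ND libraries. Diet, cohort and batch cannot be told apart in these differences.

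**Figure D4:**
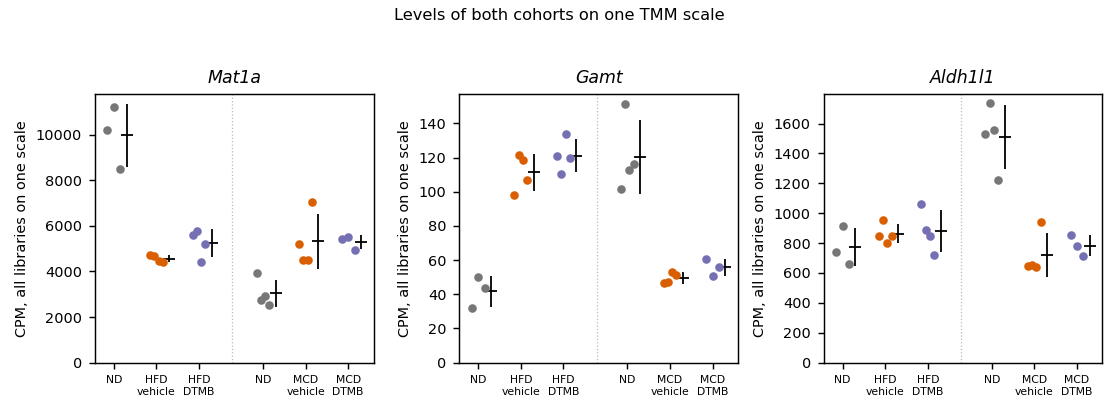
Levels of Mat1a, Gamt and Aldh1l1 in CPM with all 22 libraries on one scale, with mean and SD beside the points of each group. The 2 normal-diet groups do not overlap in any of the 3 genes.

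On HFD, Nnmt, Ahcy, Gnmt, Mat2b and Mtrr were higher with DTMB than with vehicle, and Mthfd1l and Mtr were lower. Of 34 members 5 rose with DTMB against vehicle, beside 6.64% of all genes, and 2 fell, beside 6.04%, with median log2 fold changes of 0.05 over members and -0.01 over all genes. The diet and DTMB comparisons share the same 4 HFD vehicle libraries, so their values are only set side by side. These 7 calls were sensitive to the libraries used. With HFD vehicle replicate 1, 2 or 4 or HFD DTMB replicate 4 left out, 3 calls were made, and with HFD DTMB replicate 2 or 3 left out, 4. None was called without the acinar libraries, where 11 members had an unadjusted p under 0.05, and over all 16101 genes none was called and 2182 had such a p (DESeq2 on all libraries called 11 members). By library size alone, which moves the median of all genes to -0.17, 3 members rose and 5 fell, with Chdh, Csad and Gldc among the falls. The share of all genes called under that scaling is not given here.

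Nnmt, at 89.0, 93.8, 93.5 and 87.6 CPM with vehicle, had 144, 156, 174 and 142 CPM with DTMB. The groups were separate, at 0.76 ± 0.09 (adjusted p = 0.0041), and the value without acinar libraries was 0.65 ± 0.09 (adjusted p = 0.0929). Ahcy had 2747, 2654, 2592 and 2942 CPM with DTMB, all above the vehicle libraries (0.50 ± 0.10, adjusted p = 0.0133). Gnmt went from 925, 1014, 1047 and 845 CPM to 1352, 1235, 1293 and 1381 CPM, again without overlap (0.46 ± 0.08, adjusted p = 0.011). Without the acinar libraries Ahcy was at 0.41 ± 0.09 and Gnmt at 0.36 ± 0.09.

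The other 4 calls were of low or small effect. Mthfd1l went from 0.906, 1.34, 0.726 and 1.69 CPM to 0.629, 0.362, 0.329 and 0.102 CPM (-1.71 ± 0.43, adjusted p = 0.0278). Methionine synthase and its reductase moved apart. Mtr went from 6.68, 7.03, 6.60 and 7.44 CPM to 5.68, 5.47, 4.61 and 4.43 CPM (-0.46 ± 0.11, adjusted p = 0.0235), and Mtrr from 5.08, 5.35, 5.61 and 6.16 CPM to 6.54, 6.38, 7.55 and 7.34 CPM (0.33 ± 0.09, adjusted p = 0.0423). Mat2b was at 0.33 ± 0.10 (adjusted p = 0.0458). Mat2b lost its call in 15 of 19 other settings, Mtrr in 12, Mthfd1l in 9 and Mtr in 8. Mat1a, which HFD lowered most among methionine cycle genes, was at 0.20 ± 0.10 (adjusted p = 0.226), and Cbs and Cth were at 0.12 and 0.25, not called. Gamt was at 0.11 ± 0.12.

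Collagen genes of the stellate cell list were lower with DTMB on HFD, Col1a1 by a log2 fold change of -2.10 and Col3a1 of -1.62, and 3 of 10 markers of that list fell. Hepatocyte markers rose in 3 of 8 and markers of S phase and mitosis fell in 6 of 16. Their part in the members' differences was not tested. Set against normal diet, HFD with DTMB had 9 members higher, beside 15.7% of genes, and 9 lower, beside 13.5%, and without the acinar libraries 2 were higher and 4 lower. Mat1a was still lower by -0.92 ± 0.11 (adjusted p = 0.000143) and Gamt higher at 1.54 ± 0.14 (adjusted p = 2.29e-05). Nnmt, at -0.15 ± 0.09, Ahcy, at -0.13 ± 0.11, and Gnmt, at 0.20 ± 0.09, were not called. Csad was at -1.71 ± 0.26 (adjusted p = 0.000524).

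**Figure D5:**
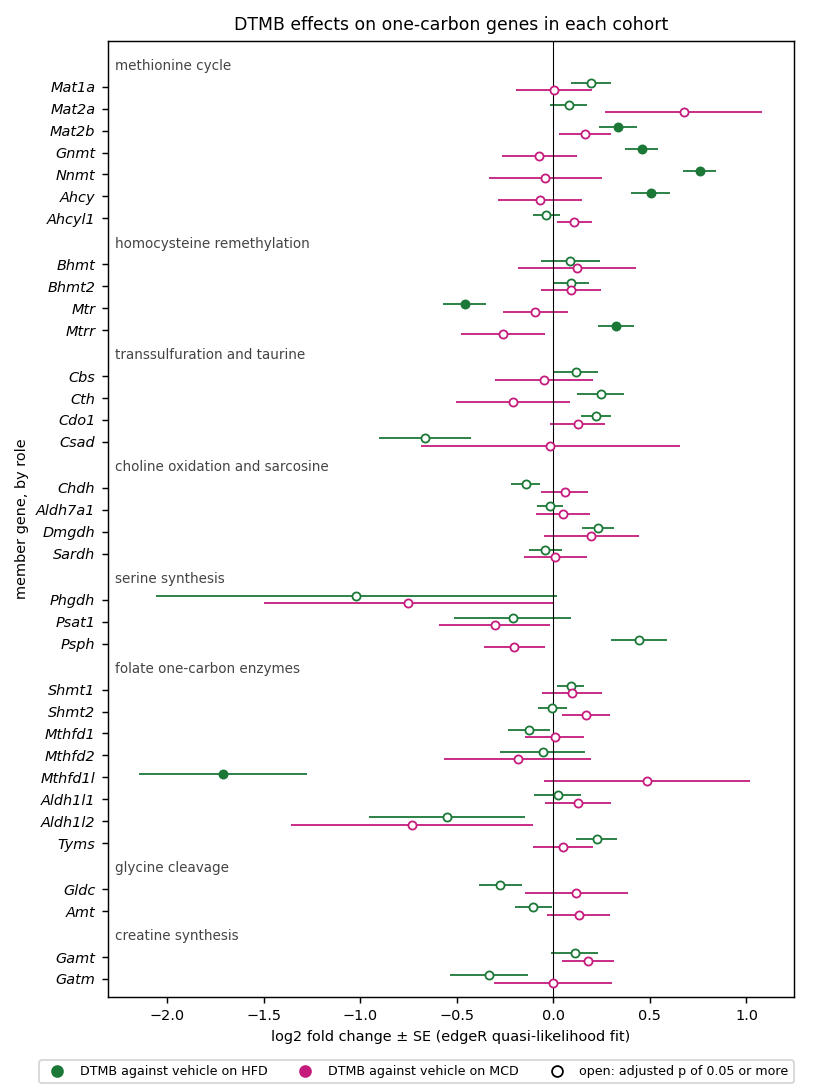
Log2 fold change with its standard error for each member, DTMB against vehicle on HFD (green) and on MCD (pink); filled points have an adjusted p under 0.05. The 7 filled points are all from HFD, and no member was called on MCD.

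On MCD diet, no member passed the test for DTMB against vehicle. By edgeR's quasi-likelihood test 0 members rose, beside 0.00624% of genes (1 gene), and 0 fell, beside 0%. No member had an unadjusted p under 0.05, while 857 genes did, and DESeq2 called 13 genes and 0 members. The median SE over members was 0.195 here and 0.106 for DTMB on HFD. Psat1 read 13.9, 23.7 and 21.4 CPM with DTMB, inside the vehicle range of 14.98 to 35.8 except for 1 library (-0.31 ± 0.29). Mat2a read 359, 488 and 342 CPM, with 1 library above the vehicle range of 75.7 to 440.0 and the others inside it (0.68 ± 0.41). Nnmt, Ahcy and Gnmt were at -0.04, -0.07 and -0.07. The difference between the DTMB effects on the 2 diets was called in 0 members and 0 genes (beside 0% in each direction). There 6 members and 1415 genes had an unadjusted p under 0.05, and DESeq2 called 38 genes and 0 members. An effect particular to HFD is therefore not shown.

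Against normal diet, MCD with DTMB had 6 members higher, beside 16.2% of genes, and 10 lower, beside 16.4%. Psat1 was at 4.91 ± 0.34 (adjusted p = 2.74e-06) and Mat2a at 3.39 ± 0.43 (adjusted p = 0.000139). Aldh7a1 was at -1.53 ± 0.15 (adjusted p = 2.15e-05) and Gamt at -1.12 ± 0.14 (adjusted p = 0.000133). Csad was at -2.86 ± 0.74 (adjusted p = 0.012), a value that became -4.09 without DTMB replicate 2 and lost its call without DTMB replicate 3.

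Counts for neighbouring genes of the pathway are given by list. Over all genes tested, 15.2% rose and 12.6% fell on HFD, and 20.3% rose and 21% fell on MCD. The lists are short and were not tested as sets. Of 15 tested genes of folate transport and handling, 3 rose and 3 fell on HFD, and 2 rose and 5 fell on MCD. Fpgs, which adds glutamates to folate, was at -1.35 ± 0.19 on MCD. Of 10 genes of glycine cleavage partners and serine breakdown, 2 rose and 5 fell on HFD, and none rose and 5 fell on MCD. Sdsl, a serine dehydratase-like enzyme, was at -2.35 ± 0.10 on HFD, and Srr, serine racemase, at -1.34 ± 0.09 on MCD. Of 15 genes of methionine salvage and polyamines, 2 rose and 1 fell on HFD, and 6 rose and 3 fell on MCD. Odc1, the first enzyme of polyamine synthesis, was at -0.56 ± 0.09 on HFD, and Paox, a polyamine oxidase, at -0.97 ± 0.12 on MCD.

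Of 18 genes of cysteine, sulfide, taurine and glutathione, 3 rose and 3 fell on HFD, and 3 rose and 6 fell on MCD. Ethe1, which oxidises persulfides, was at -1.50 ± 0.17 on MCD, and Sqor, which oxidises sulfide, at 0.66 ± 0.08 on HFD. Of 12 genes of vitamin B12 and B6 handling, 5 rose and none fell on HFD, and 3 rose and 3 fell on MCD. Mmadhc, a B12 chaperone, was at 0.63 ± 0.09 on MCD, and Mmab, which makes adenosylcobalamin, at 1.34 ± 0.18 on HFD. Of 14 choline and betaine genes, 2 rose and 3 fell on HFD, and 1 rose and 4 fell on MCD. Slc44a1, a choline transporter, was at -0.94 ± 0.12 on MCD and Slc44a3, of the same family, at 1.19 ± 0.14 on HFD.

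Other methyltransferases and their partners showed 5 rises and 3 falls among 17 on HFD, and 3 rises and 7 falls on MCD. Hnmt, which methylates histamine, was at 1.56 ± 0.12 on HFD, and Ckb, a creatine kinase, at 0.88 ± 0.22. Aox3, an aldehyde oxidase that can act on products of Nnmt, was at -2.80 ± 0.16 on MCD. Slc6a8, the creatine transporter, was at 2.05 ± 0.22 on MCD and at -0.98 ± 0.26 with DTMB on HFD (adjusted p = 0.032). With DTMB on HFD, rises and falls over the 8 lists came to 2 and 0 for folate, 2 and 0 for glycine and serine, 5 and 0 for salvage and polyamines, 1 and 1 for sulfur, 1 and 0 for vitamins, 1 and 1 for choline, 0 and 3 for methyltransferases and 0 and 1 for creatine. The genes of smallest p in these lists were Mthfs (0.38 ± 0.09), Gcat (0.43 ± 0.08), Paox (0.43 ± 0.07), Fmo1 (-0.36 ± 0.08), Cd320, the B12 carrier receptor (0.66 ± 0.17), Slc44a3 (-0.57 ± 0.13), Dnmt1, the maintenance DNA methyltransferase (-0.68 ± 0.12), and Slc6a8. Over all genes, 6.64% rose and 6.04% fell with DTMB on HFD. On MCD, DTMB gave no call in any of the 8 lists.

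Psat1, Phgdh, Aldh1l2 and Mthfd2 are known targets of ATF4, a transcription factor of amino acid and endoplasmic reticulum stress. Of these, Mthfd2 was not called on MCD. The part of ATF4 in the members' differences was not tested. Among 19 other ATF4 targets listed, 11 rose and 2 fell on MCD, beside 20.3% and 21% of all genes. On HFD 3 rose and 2 fell, beside 15.2% and 12.6%. Fgf21, a stress hormone of liver, was 0.0924, 0, 0.0775 and 0.194 CPM on ND and 7.37, 11.9, 10.6 and 4.05 CPM on MCD. Asns, asparagine synthetase, was 15.3, 6.43, 5.499 and 8.98 CPM on ND and 41.2, 26.1, 25.8 and 24.1 CPM on MCD (1.69 ± 0.35, adjusted p = 0.00236). The aminoacyl-tRNA synthetase genes Cars and Aars, also on that list, were lower at -0.82 and -0.61. On HFD, Asns went the other way, from 6.67, 13.1 and 8.55 CPM to 1.17, 0.331, 0.791 and 0.944 CPM, while Psat1 stayed between 0.290 and 0.662 CPM in the ND and HFD vehicle libraries.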

How the data were processed

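Poly(A) RNA of 22 liver samples (RIN over 7.0) was sequenced from stranded libraries, per the labels' protocols. The authors deposited raw read counts per gene, whole numbers without normalization, 1 table per cohort. The submitters' processing notes name the mm10 build and 4 tools (HISAT2 2.1.0, StringTie 2.1.3b, Trimmomatic 0.38, FastQC 0.11.7), without roles or settings. Of 45777 genes, 20101 had no count. Gene IDs were matched to the GRCm38.p6 RefSeq table (45679 matched, and 34 of 34 members).

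Differences were tested by edgeR 4.0.16 (R 4.3.3) with default settings of filterByExpr, TMM factors, estimateDisp, glmQLFit and glmQLFTest. Separate fits were made for the HFD cohort (15597 genes) and the MCD cohort (16037 genes), and a joint fit for differences between diets (16541 genes). A gene was called at a Benjamini-Hochberg adjusted p under 0.05 across every gene in the fit. The SE is the fold change over the root of its F statistic. CPM use TMM-scaled library sizes within a cohort unless one scale is named. The fits were tested on simulated data.

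Alternatives were DESeq2 1.42.0, RLE factors, library size alone, a filter at CPM above 1 in 3 libraries, no filter on low counts, all 22 libraries in one fit, a replicate block, leaving out each library, and leaving out libraries with acinar transcripts above 100 CPM. Deviations from the group mean were correlated between libraries of the same number in different groups, with mixed results. The correlations ran from -0.532 to 0.497 in the HFD cohort, with 5 of 10 pairs over 0.1. In the MCD cohort they ran from -0.405 to 0.123, with 3 of 10 pairs over 0.1. Every pair within a group differed by more than sampling noise (chi-square per degree of freedom 24.9 or more). Members, gene lists and the rule for named genes (every member, and in each list of related genes the gene of smallest p per diet and for DTMB) were chosen with earlier results of these data known. One gene that this rule names is not reported here. Figures were drawn with matplotlib 3.10.9.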

Additional observations from a re-analysis of the deposited data

Results flagged for a closer look

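In 19 members the difference between the diet effects of the 2 cohorts was called (edgeR's quasi-likelihood test over both cohorts). As MCD minus HFD log2 fold changes, these were positive for Psat1 (5.02), Aldh1l2 (3.5), Mthfd1l (3.02), Mat2a (2.3), Mat1a (1.94), Nnmt (1.06), Mtrr (0.848), Mat2b (0.557) and Ahcyl1 (0.357). They were negative for Gamt (-2.69), Aldh7a1 (-1.7), Amt (-1.4), Aldh1l1 (-1.23), Sardh (-1.22), Shmt2 (-1.07), Mthfd1 (-0.905), Shmt1 (-0.789), Gnmt (-0.734) and Cdo1 (-0.577). Mat1a and Gamt changed sign between the diets with a call on each, and so did Sardh, Shmt1 and Shmt2. Over all genes the difference was positive in 16.8% and negative in 18.5%. In 16 of the 19 members the ND difference between cohorts had the opposite sign, in 12 of them with ND libraries that did not overlap. An ND difference pushes the difference in diet effects the other way by arithmetic, in any gene. The matching share over all called genes was not computed, so this count is a description and no trait of the members. Diet, cohort and batch cannot be told apart here.

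A single library stood apart from the rest of its group in 2 of 136 sets of one gene in one group of 4 libraries, where chance gives about 1 in 20. Chdh was at 249 CPM in HFD vehicle replicate 3, against 231 to 234 CPM in the other 3 libraries. Aldh1l1 was at 981 CPM in MCD vehicle replicate 4, against 669 to 677 CPM. That library was also the highest of its group in Mat1a, Gnmt, Nnmt and Cth and the lowest in Mat2a, Csad, Psat1 and Aldh1l2.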

How the results depend on the processing

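Here and above, counts of called members per setting mostly stand without the share of all genes called in that setting. They describe the fits and are no trait of the members. By these counts DTMB on HFD was the least stable comparison. Its 7 called members became 11 with DESeq2, 4 with the replicate block, 0 with all 22 libraries in one fit (8 members with an unadjusted p under 0.05) and 0 without the acinar libraries, and 3 to 8 when 1 library was left out. Without the acinar libraries the called members also went from 13 to 6 for HFD diet, from 18 to 6 for HFD with DTMB against normal diet and from 19 to 8 for the difference between diets. That setting leaves 1 HFD-cohort ND library, whose spread is taken from the other groups. With all 22 libraries in one fit, HFD with DTMB against normal diet had 10. The counts for the MCD diet (21), MCD with DTMB against normal diet (16), DTMB on MCD (0) and the difference between DTMB effects (0) stayed within 1.5 times in every setting run. Of called members, 6 of 13 for HFD diet, 14 of 21 for MCD diet, 12 of 16 for MCD with DTMB against normal diet, 4 of 18 for HFD with DTMB against normal diet, 8 of 19 for the difference between diets and 0 of 7 for DTMB on HFD kept their call in every setting. Among values called in the main or the other setting, Chdh on MCD diet was the one whose direction turned, at 0.354 by library size alone, and the cause was not tested. Values called in neither setting also changed sign, such as Ahcy (0.29), Bhmt (0.41) and Psph (0.28) on MCD diet by library size. Whether the replicate numbers pair the libraries is not settled. Besides the DTMB count on HFD, the replicate block moved no count of members by over 1.5 times. Depth limits genes near 0.1 CPM such as Phgdh, which had 0 to 11 counts in the normal-diet libraries of the MCD cohort, and no interval of counting error was computed for them.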
